A study of Mus musculus with 15 samples.

Results

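The levels of 32 genes of cholesterol and fatty acid synthesis were examined in RNA-Seq libraries from NMuMG cells, a line of mouse mammary gland epithelial cells. The genes were chosen by name as regulators and enzymes of these pathways, and all 32 were present among the 13893 genes of a knockout dataset and among the 15023 genes of a knockdown dataset. All 32 also passed the filter on low values (a mean of at least 0.5 CPM, the normalized count scaled to the library), among 12621 and 11384 tested genes. They fell into 4 roles, with 6 regulators of the SREBP pathway, 7 mevalonate enzymes, 11 enzymes from squalene to cholesterol and 8 genes of fatty acid synthesis and desaturation.

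The knockdown dataset compared 2 libraries of NMuMG cells, labelled as without treatment and named shSCR in the study, with 2 libraries of NMuMG cells that carry a short hairpin RNA against PCBP1 (shPCBP1), an RNA-binding protein. The knockout dataset held 4 shPCBP1 lines (an unaltered line and CT clones 1, 2 and 3). In the study the CT (control) clones received Cas9 but no guide RNA against a gene, so this control group mixes treated and unaltered cells. The dataset also held 3 clones of FAM3C KO, 3 of LIFR KO and a single line with both genes knocked out (double KO). Each line gave 1 library. Every line of the knockout dataset carried the PCBP1 knockdown, its controls included. Each KO line was grown from a discrete colony after Cas9 with a guide pair that excises a short piece of the coding sequence of Fam3c, which encodes a secreted protein, or Lifr, which encodes the receptor of leukemia inhibitory factor. The labels did not state that the libraries of the knockdown dataset came from separate cultures, so p-values measure only the spread between these samples, which may be technical. The 2 datasets were fitted apart, and their levels were not compared.

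Cholesterol synthesis is set at the level of transcription by the proteins of Srebf1 and Srebf2, membrane-bound factors that are released as active nuclear proteins when sterol in the endoplasmic reticulum is low. Scap escorts them to the Golgi for cleavage, and the proteins of Insig1 and Insig2 hold Scap back when sterol is plentiful. The genes of the pathway, from the mevalonate enzymes to the fatty acid desaturases, are known targets, and in mammary epithelium they supply membrane lipid and, in lactation, milk fat.

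The sequences upstream of 6 members are shown because these members stood for the different outcomes of the knockdown: Hmgcs1, Insig1, Mvk and Idi1 fell, Srebf2 did not pass the threshold, and Fasn rose. They were taken from the RefSeq promoter windows on GRCm38.p6, which run from 250 bases before to 50 bases after a start site, and each line gives the 250 upstream bases from 5′ to 3′. They lie at chr13:119690101-119690350, chr5:28071162-28071411, chr5:114444019-114444268, chr13:8885356-8885605 and chr15:82147019-82147268 on the plus strand and at chr11:120824548-120824797 on the minus strand. Capitals mark the CCAAT box on either strand and, in Hmgcs1, a run that matches the letters TCACNCCAC, like the sterol regulatory element.
Hmgcs1: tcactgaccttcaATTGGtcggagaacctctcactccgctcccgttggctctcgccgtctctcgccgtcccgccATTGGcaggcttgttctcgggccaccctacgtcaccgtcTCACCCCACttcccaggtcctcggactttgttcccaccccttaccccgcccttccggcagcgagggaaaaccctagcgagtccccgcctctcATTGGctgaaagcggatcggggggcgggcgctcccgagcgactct
Insig1: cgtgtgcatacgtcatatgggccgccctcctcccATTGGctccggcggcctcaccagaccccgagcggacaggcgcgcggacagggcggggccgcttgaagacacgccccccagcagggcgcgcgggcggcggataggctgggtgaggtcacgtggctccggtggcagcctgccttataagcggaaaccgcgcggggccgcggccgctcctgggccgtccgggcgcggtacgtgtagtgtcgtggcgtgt
Mvk: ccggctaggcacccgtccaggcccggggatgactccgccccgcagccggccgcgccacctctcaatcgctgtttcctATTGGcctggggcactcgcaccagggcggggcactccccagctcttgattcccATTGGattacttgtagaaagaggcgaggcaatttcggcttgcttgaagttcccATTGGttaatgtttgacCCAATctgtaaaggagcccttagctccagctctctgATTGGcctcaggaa
Idi1: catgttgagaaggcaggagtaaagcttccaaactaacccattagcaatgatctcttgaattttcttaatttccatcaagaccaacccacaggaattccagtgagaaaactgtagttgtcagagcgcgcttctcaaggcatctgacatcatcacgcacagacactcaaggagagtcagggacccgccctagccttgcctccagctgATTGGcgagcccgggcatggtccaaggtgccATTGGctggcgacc
Srebf2: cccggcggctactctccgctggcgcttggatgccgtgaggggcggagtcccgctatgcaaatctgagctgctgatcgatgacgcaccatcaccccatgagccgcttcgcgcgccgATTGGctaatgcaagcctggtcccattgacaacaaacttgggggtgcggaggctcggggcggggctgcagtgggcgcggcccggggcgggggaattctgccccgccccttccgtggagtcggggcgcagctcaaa
Fasn: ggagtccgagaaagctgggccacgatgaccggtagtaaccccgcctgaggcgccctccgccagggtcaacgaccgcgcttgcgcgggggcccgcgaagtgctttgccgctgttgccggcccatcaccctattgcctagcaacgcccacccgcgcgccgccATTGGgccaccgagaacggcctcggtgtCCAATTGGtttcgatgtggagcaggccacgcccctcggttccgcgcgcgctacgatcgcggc

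The window was given for 25 of the 32 members, and CCAAT was found in at least 1 window of 20 of them (80%), against 43.4% of the 8515 genes tested in the knockdown dataset that have a window. Over all 32851 windows the share was 37.4%, against 21 of 33 member windows. Both strands were searched, and the 2 neighbouring matches in the Fasn sequence overlap. Of the 20 members with CCAAT, 15 fell after the knockdown, 2 rose (Insig2 and Fasn) and 3 did not pass the threshold (Srebf1, Srebf2 and Acly). Of all 32 members 23 fell and 5 rose, and of the 3696 tested genes with CCAAT 40.0% fell and 40.3% rose. Of the 5 without it, Acat2 and Fads2 fell, Scap and Acaca rose and Elovl6 did not pass, where 37.4% of the 4819 tested genes without it fell and 43.1% rose. The GC box (GGGCGG) was found in 21 of the 25 members and 71.1% of the tested genes, the E-box (CACGTG) in 5 of the 25 and 12.03%, and TCACNCCAC in Hmgcs1 alone among the 25 and in 1.35%. A match is a description of these letters and not a bound site.

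Pcbp1 stood at 287.0 and 312.0 CPM in the NMuMG libraries and at 14.1 and 14.2 CPM after the knockdown. In the knockout dataset Pcbp1 read 22.5 and 19.9 CPM in LIFR KO clones 2 and 3 and 20.6 CPM in the double KO. The other 8 lines of that dataset read 32.9 to 39.5 CPM. Fam3c read 26.4, 33.9 and 42.9 CPM in the FAM3C KO clones against 47.0 to 59.4 CPM in the shPCBP1 lines. Lifr read 34.9, 29.3 and 14.6 CPM in the LIFR KO clones 1, 2 and 3 against 25.8 to 40.2 CPM, 10.5 to 19.2 CPM in the FAM3C KO clones and 4.36 CPM in the double KO. The excised pieces are short, so these gene totals do not show whether a piece was absent and check no label of a KO line. Cdh1, Krt8, Krt18 and Krt19 were present in all libraries, 4 of 8 epithelial markers, while Epcam, Cldn3 and Esrp1 were not among the listed genes. Cldn4 was listed in the knockdown dataset alone, at only 0.0186 to 0.124 CPM. Of 8 adipocyte markers in the knockdown dataset, Adipor2, a receptor that other cells also express, stood at 101.9 to 120.0 CPM, Pparg at 0.151 to 1.57 CPM, Cidec and Fabp4 at most 0.358 CPM and Adipoq at most 0.0190 CPM, while Plin1, Lep and Lpl were not among the listed genes. LIFR KO clones 2 and 3 and the double KO stood apart from the other 8 lines of their dataset. Transcripts of the mitochondrial genome made up 7.16% to 8.58% of their CPM against 3.14% to 4.06%. Their genes of high GC content (the share of G and C among the bases of the longest transcript) were low. The results past the threshold in the LIFR KO group are therefore also given after a correction for GC content.

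Among the NMuMG controls, Scd2, a stearoyl-CoA desaturase, had the highest level of the members per length, at 409.7 CPM per kb of exon. The next were Fads1 at 46.5, Hmgcs1 at 42.3, Stard4 at 31.5 and Ebp at 31.2 CPM per kb, and the lowest were Acaca at 1.63 and Scap at 2.21 CPM per kb. After the knockdown Scd2 was still the highest, at 170.8 CPM per kb, followed by Srebf2 at 26.0, Stard4 at 23.3 and Fasn at 22.8 CPM per kb. Srebf2 moved from rank 6 to rank 2 at a nearly unchanged level (25.5 and 26.0 CPM per kb), while the members ranked above it in NMuMG fell. Fasn moved from rank 14 to rank 4 as its level rose from 13.2 to 22.8 CPM per kb. Fads1 moved from 2 to 5 and Hmgcs1 from 3 to 8. Scd1 and Scd2 belong to a cluster of related copies on chromosome 19 with Scd3 and Scd4, so reads of one could be counted for another, and their levels are uncertain to that extent. The exons of Fdft1 overlap those of Ctsb on the other strand over 18.3% of their length, those of Fdps overlap a gene model on the same strand over 26.7%, and those of Tm7sf2 overlap Vps51 over 12.1%.

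The knockdown comparison asks how loss of PCBP1 changes these genes in NMuMG cells. Of the 32 members, 23 were lower in shPCBP1 than in NMuMG and 5 were higher (limma on log2(CPM + 0.1), adjusted p under 0.07), while Srebf1, Srebf2, Acly and Elovl6 did not pass. Of all 11384 genes tested, 38.0% were lower and 42.1% were higher. With a change of at least 1.5-fold also required, 16 members were lower and 1, Fasn, was higher, where 15.1% of all genes were lower and 16.0% higher. The median log2 difference of the members was -0.59, and that of all genes was 0.02.

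The regulators split. Srebf1, which drives fatty acid genes foremost, stood at 43.8 and 44.6 CPM in NMuMG and at 45.9 and 46.5 CPM in shPCBP1 (log2 difference 0.06, adjusted p = 0.0807 by limma). Srebf2, the main activator of sterol genes, stood at 183.2 and 183.7 CPM and at 185.8 and 188.0 CPM, a log2 difference of 0.03 with a 95% interval of -0.02 to 0.07 (adjusted p = 0.269 by limma). Insig1, itself a sterol-responsive brake on Scap, fell from 64.5 and 67.9 CPM to 30.8 and 31.5 CPM, 2.12-fold (log2 difference -1.08, SE 0.0350, adjusted p = 3.10e-10 by limma). The other brake, Insig2, rose by 0.14 on the log2 scale (adjusted p = 0.0321 by limma), and Scap by 13.7% (adjusted p = 0.00814 by limma). Without NMuMG replicate 2 or either shPCBP1 library Insig2 did not pass (adjusted p = 0.179 to 0.268 by limma), nor with no filter on low values (0.108), nor did Scap without shPCBP1 replicate 2 (adjusted p = 0.103 by limma). Stard4, which moves cholesterol between membranes, fell by 0.43 on the log2 scale, from 175.0 and 177.1 CPM to 129.1 and 131.4 CPM. The libraries of the 2 groups did not overlap for any of the 6 regulators, Srebf1 and Srebf2 included, which did not pass. The share of all genes without overlap was not counted in this dataset. An unadjusted p under 0.05 by limma was reached by 79.5% of all genes.

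All 7 mevalonate enzymes fell, with a median log2 difference of -0.81. Hmgcs1, which makes HMG-CoA, was 195.3 and 193.7 CPM in NMuMG and 82.2 and 81.2 CPM in shPCBP1, 2.38-fold lower (log2 difference -1.25, SE 0.0229, adjusted p = 5.33e-12 by limma). Mvk, the first of the kinases that phosphorylate mevalonate, was 11.3 and 9.96 CPM and then 5.95 and 6.06 CPM (log2 difference -0.81, SE 0.0805). Pmvk, the kinase of the next step, was 16.4 and 17.1 CPM and then 7.44 and 7.59 CPM (log2 difference -1.14, SE 0.0610). Fdps, which makes farnesyl diphosphate, fell from 49.8 and 48.3 CPM to 23.1 CPM in both libraries, 2.12-fold. These 4 passed a 1.5-fold change, and their replicates lay far closer together than the groups. Smaller falls were seen for Mvd (-0.52), Idi1 (-0.47) and Acat2 (-0.31 on the log2 scale), which decarboxylate, isomerise and supply the precursors, with adjusted p from limma of 4.35e-06, 2.26e-07 and 1.71e-05.

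Of the 11 enzymes from squalene to cholesterol, 10 fell and 1, Sqle, rose, and their median log2 difference was -0.70. Fdft1, the squalene synthase, fell from 31.4 and 30.6 CPM to 14.0 and 13.1 CPM, 2.28-fold (log2 difference -1.19, SE 0.0483, adjusted p = 1.88e-09 by limma). Sqle, the squalene epoxidase that acts directly after it, was 94.7 and 94.0 CPM in NMuMG and 98.1 and 99.9 CPM in shPCBP1, 4.93% higher (log2 difference 0.07, adjusted p = 0.0238 by limma). Without shPCBP1 replicate 2 its adjusted p was 0.141 by limma, and with median-ratio rescaling 0.0894. Lss, which closes the sterol rings, fell again, from 81.1 and 78.6 CPM to 37.8 and 37.4 CPM (log2 difference -1.08, adjusted p = 9.74e-11 by limma). Sqle therefore stood between 2 steps that were more than 2-fold lower, and of the 18 enzymes from acetyl-CoA to cholesterol it was the one that did not fall.

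The later steps, which strip methyl groups and shift or reduce double bonds, were all lower. Cyp51, the lanosterol demethylase, went from 102.9 and 100.1 CPM to 56.4 and 53.3 CPM (log2 difference -0.89). Sc5d, a desaturase near the end of the pathway, went from 55.0 and 55.5 CPM to 28.9 and 29.4 CPM (-0.92), and Ebp, an isomerase, from 70.0 and 74.0 CPM to 42.2 and 41.7 CPM (-0.78). Each of these 3 was lower by between 1.71-fold and 1.89-fold. Nsdhl was 40.6 and 39.6 CPM and then 24.9 and 24.5 CPM (-0.70). Msmo1, the methyl oxidase that works with it, was 105.5 and 101.6 CPM and then 66.8 and 63.1 CPM (-0.67). Tm7sf2, a sterol reductase, was 26.1 and 25.7 CPM and then 15.7 and 17.95 CPM (-0.62). The falls of Dhcr7 (log2 difference -0.44), the reductase of the last step in one branch, and Hsd17b7 (-0.27) were below 1.5-fold. For all 10 enzymes that fell, both shPCBP1 libraries lay below both NMuMG libraries, a separation whose share over all genes was not counted.

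The fatty acid genes divided between synthesis and desaturation. Fasn, the fatty acid synthase, rose from 144.8 and 144.0 CPM to 248.63 and 250.98 CPM, 1.73-fold (log2 difference 0.79, SE 0.0212, adjusted p = 7.63e-11 by limma). Acaca, which makes its substrate malonyl-CoA, rose by 20.8% (adjusted p = 6.30e-05 by limma), while Acly, the source of cytosolic acetyl-CoA, was 57.7 and 61.6 CPM and then 56.9 and 58.5 CPM (adjusted p = 0.252 by limma, and 0.0193 without NMuMG replicate 1). Elovl6, which lengthens palmitate, was 69.2 and 69.7 CPM and then 69.8 and 70.1 CPM, a difference with a 95% interval of -0.05 to 0.07 on the log2 scale. All 4 desaturases were lower. Scd2 fell from 2240.5 and 2237.1 CPM to 933.0 and 933.9 CPM, 2.40-fold (log2 difference -1.26, SE 0.0195, adjusted p = 1.98e-12 by limma), the largest change of any member on this scale. Scd1, its paralog, fell from 25.4 and 25.6 CPM to 16.9 and 17.7 CPM (log2 difference -0.56, adjusted p = 5.04e-07 by limma). Fads1, the delta-5 desaturase of polyunsaturated fatty acids, fell from 223.1 and 224.8 CPM to 100.4 and 99.5 CPM (log2 difference -1.16). Fads2, the delta-6 desaturase, fell from 30.7 and 32.2 CPM to 17.96 and 17.76 CPM (-0.81). All 4 desaturase genes lie on chromosome 19, Scd1 near Scd2 and Fads1 near Fads2.

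**Figure D1:**
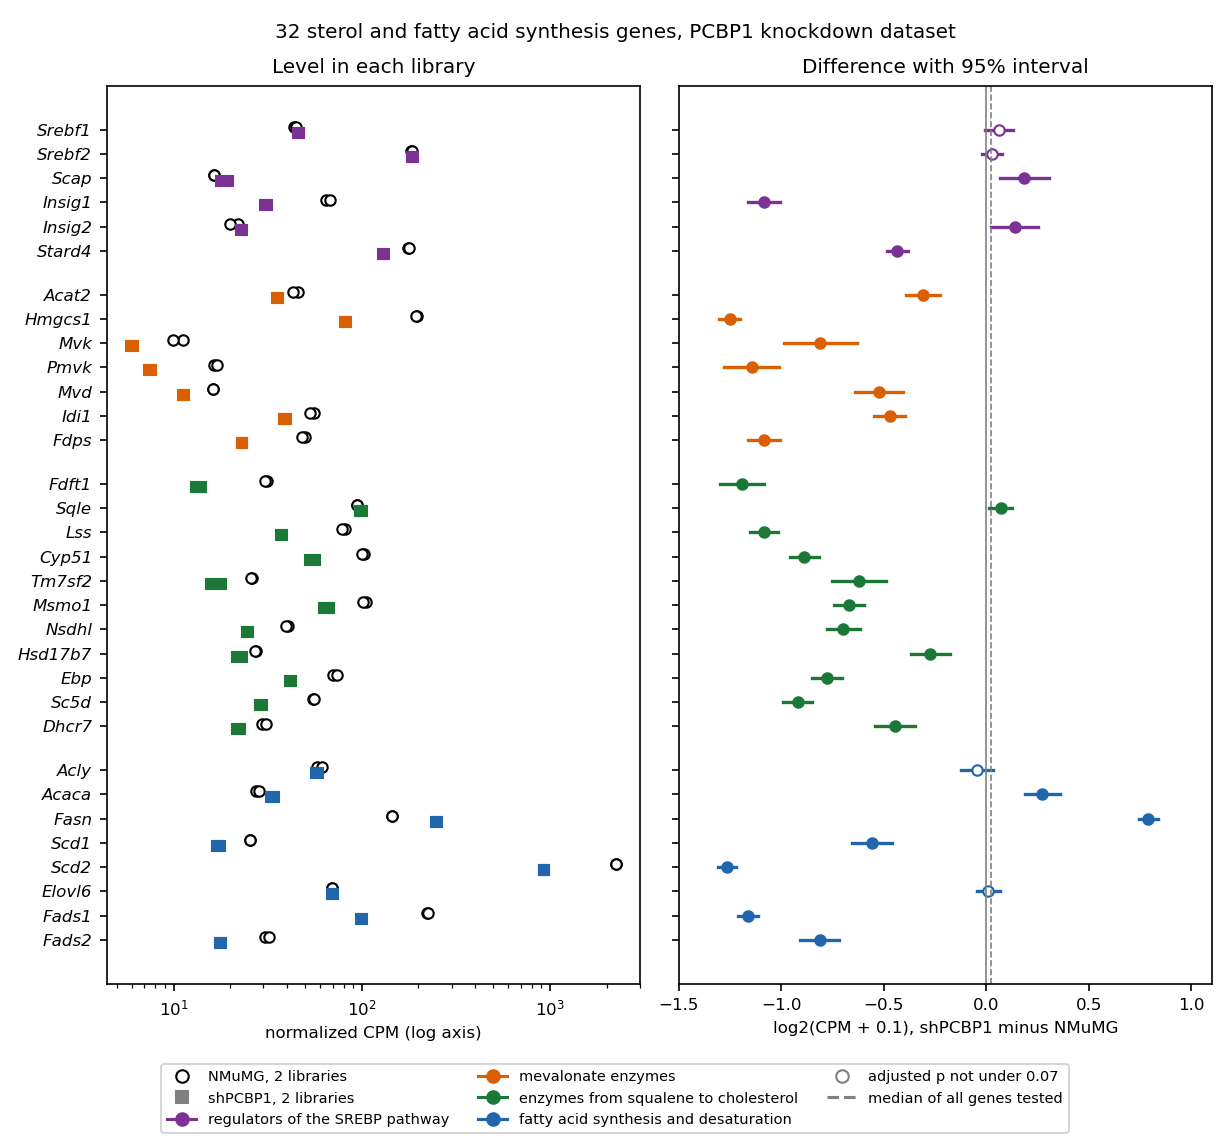
The left panel plots the normalized CPM of each member (log axis) in the 2 NMuMG libraries (open circles) and the 2 shPCBP1 libraries (filled squares), and the right panel plots the log2 difference with its 95% interval, coloured by role. The 7 mevalonate enzymes and 10 of 11 enzymes from squalene to cholesterol lie left of 0, with Sqle at 0.07, and Fasn at 0.79 is the highest point.

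Neighbouring genes moved in the same direction for some of these members, a description that was chosen after the values were seen. The 94 tested genes within 5 Mb of Scd1 and Scd2 had a median log2 difference of -0.34, those near Fads1 and Fads2 (129 and 133 genes) of -0.26 and -0.29, and the 163 near Tm7sf2 of -0.32. On chromosome 11 the 112 neighbours of Fasn had a median of 0.26 and the 74 neighbours of Acaca a median of 0.30, beside 0.79 and 0.27 for the genes themselves. Around Hmgcs1 (16 genes), Insig1 (73) and Lss (137) the medians were -0.07, 0.16 and 0.03. For other members the neighbours moved the opposite way. Around Stard4 (77 genes), Idi1 (22), Sc5d (50) and Dhcr7 (65) the medians were 0.24, 0.24, 0.24 and 0.27. These genes themselves were at -0.43, -0.47, -0.92 and -0.44. The part of the neighbourhood in these differences was not tested.

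The other genes of lipid metabolism were counted from 4 lists. Of 52 tested, 33 were lower, 17 were higher and 2 did not pass, with a median log2 difference of -0.28, where 38.0% of all genes were lower and 42.1% higher. Of the 6 tested among other sterol synthesis genes 3 were lower and 2 higher. Of 8 that process SREBP or degrade sterol-regulated proteins 3 were lower and 4 higher. Of 13 for sterol uptake, transport, esterification and efflux 8 were lower and 5 higher, and of 25 for other fatty acid and lipid synthesis 19 were lower and 6 higher. These counts are descriptions, with no test of a list against all genes. Nr1h3 and Lipa were among the genes with the largest changes. Nr1h3, a sterol-sensing nuclear receptor, fell from 9.86 and 10.5 CPM to 3.06 and 2.61 CPM, and Lipa, the lysosomal acid lipase, fell from 101.4 and 101.1 CPM to 38.9 and 37.5 CPM.

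Mesenchymal markers moved with the knockdown. All 6 that were tested, of 7, were higher, and their summed level was 535.2 to 556.2 CPM in NMuMG and 1312 to 1347 CPM in shPCBP1. The 4 tested epithelial markers were lower for Cdh1, Krt8 and Krt19 and higher for Krt18, with sums of 2917 to 2970 CPM and of 2766 to 2823 CPM. Adipocyte markers summed to 120.3 to 120.6 CPM and 103.9 to 106.2 CPM, nearly all of it Adipor2, and Pparg rose from 0.248 and 0.151 CPM to 1.47 and 1.57 CPM. The part of these shifts in the result was not tested, and in bulk RNA fewer cells of a type and less RNA per cell cannot be told apart. The members' log2 differences between replicates had a median size of 0.0382 in NMuMG and 0.0257 in shPCBP1, against 0.0569 and 0.0517 for all genes.

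In the knockout dataset the 4 shPCBP1 lines differed among themselves in these genes. Set against the mean of the other 3 lines, CT clone 2 had 5 of 32 members above 0 and a median log2 difference of -0.17, with -0.28 for the enzymes from squalene to cholesterol. CT clone 3 had 23 members above 0 with a median of 0.13, and the unaltered line had 27 above 0 with a median of 0.09. Over all genes the medians of these 3 lines were -0.04, 0.07 and -0.02. Hmgcs1 ranged from 69.5 CPM in CT clone 2 to 113.7 CPM in the unaltered line, Idi1 from 19.9 to 30.0 CPM and Insig1 from 28.4 to 36.2 CPM, each lowest in CT clone 2. Between these lines the median size of the members' log2 differences was 0.0998 to 0.258.

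The comparison of FAM3C KO with shPCBP1 asks which genes depend on FAM3C when PCBP1 is low. None of the 32 members passed the threshold in limma, where 0.0872% of all 12621 genes were higher and 0.222% lower. At an unadjusted p under 0.05 there were 2 members (Scd1 and Acaca) and 10.2% of all genes, and no other tool was run. The median log2 difference of the members was -0.09 and that of all genes -0.01. Without overlap between the groups 1 member was higher (Acaca) and 3 were lower (Acat2, Elovl6 and Scd1), where 10.1% of all genes were higher and 12.5% lower in this way.

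Scd1 showed the widest gap. It was 14.8, 8.599 and 13.2 CPM in the FAM3C KO clones and 22.1, 19.3, 26.8 and 19.3 CPM in the unaltered line and CT clones 1 to 3, so that each clone lay below each shPCBP1 line. The log2 difference was -0.86 with SE 0.239 (95% interval -1.39 to -0.33, adjusted p = 0.223 by limma, exact permutation p = 0.0286, two-sided, the smallest that 4 lines against 3 allow). With the 2 groups fitted alone the adjusted p of Scd1 was 0.0399. Its neighbours on chromosome 19 (99 genes within 5 Mb) had a median of -0.06. Scd2, in the same gene cluster, was 1251.2, 1101.8 and 1299.9 CPM in the same clones and 1388.3, 1204.5, 1203.5 and 1202.0 CPM in the shPCBP1 lines, a log2 difference of -0.04 with a 95% interval of -0.47 to 0.40.

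The sterol genes of the FAM3C KO clones lay within the range of the controls or near it. Hmgcs1 was 117.9, 91.3 and 113.9 CPM against 69.5 to 113.7 CPM (log2 difference 0.23, 95% interval -0.32 to 0.78). Insig1 was 28.0, 34.0 and 29.2 CPM against 28.4 to 36.2 CPM (log2 difference -0.15). Sqle was 111.6, 87.2 and 109.7 CPM against 89.3 to 122.7 CPM (-0.08). The groups overlapped for all 3 genes. For the factors, Srebf1 was 143.6, 121.5 and 132.5 CPM against 138.1 to 161.7 CPM, and Srebf2 was 303.8, 248.8 and 291.9 CPM against 259.7 to 323.6 CPM. Fasn was 835.0, 897.2 and 764.2 CPM against 823.6 to 954.5 CPM. Acaca was 101.1, 112.6 and 102.5 CPM against 89.4 to 94.9 CPM, 13.9% higher with an adjusted p of 0.452 by limma. Of 55 other lipid genes tested, 0 passed the threshold in limma and 5 had an unadjusted p under 0.05.

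The comparison of LIFR KO with the same 4 shPCBP1 lines shares its control samples with the comparison above. One member was higher, Scd2, and one was lower, Srebf2, where 0.911% of all genes were higher and 5.55% lower. The median log2 difference of the members was -0.06 and that of all genes -0.16. With rescaling by median ratios, which moved the median of all genes to -0.01, 3 members were higher (Scd2, Elovl6 and Acaca) and 0 lower. In that setting 180 of 12613 genes were higher and 308 lower. After correction for GC content the log2 differences of Elovl6 and Acaca were 0.02 and 0.21, and neither passed. Without overlap 4 members were higher (Acaca, Elovl6, Scd2 and Stard4), where 3.95% of all genes were, and 1 was lower (Srebf2), where 13.2% were. These separations were counted in the deposited values, and the log2 difference of Stard4 went from 0.31 to 0.015 after the correction.

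Scd2 was 2772.2, 2514.1 and 1469.5 CPM in LIFR KO clones 1, 2 and 3 and 1202.0 to 1388.3 CPM in the shPCBP1 lines. Every clone lay above every control line, with clone 3 only a little above the unaltered line. The log2 difference was 0.80 with SE 0.196 (adjusted p = 0.0540 by limma, exact permutation p = 0.0286, two-sided, the smallest that 4 lines against 3 allow). After correction for GC content it was 0.83 (adjusted p = 0.0585 by limma), and with clone 1 as the only LIFR KO library it was 1.15. The call was lost without LIFR KO clone 2 (0.69, adjusted p = 0.232 by limma) and without any 1 of the 4 control lines, where the adjusted p by limma was 0.113 to 0.137. The 99 neighbours within 5 Mb had medians of 0.41, 0.05 and -0.47 in clones 1, 2 and 3, beside 1.15, 1.01 and 0.24 for Scd2. Scd1 was 33.2, 23.3 and 17.8 CPM in the same clones, in the same order as Scd2, and its log2 difference of 0.14 did not pass the threshold (adjusted p = 0.672 by limma, and 0.02 with 0.972 after the correction).

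Srebf2 was 232.3, 120.8 and 194.8 CPM in LIFR KO clones 1, 2 and 3 against 259.7 to 323.6 CPM. Each clone lay below each control line (log2 difference -0.75, SE 0.194, adjusted p = 0.0591 by limma, exact permutation p = 0.0286, two-sided, the smallest possible). After correction for GC content the difference was -0.37 and no longer passed (adjusted p = 0.150 by limma), and with clone 1 as the only LIFR KO library it was -0.35, a value from 1 library whose spread is assumed to be that of the other groups. It also did not pass without clone 2 (-0.48) or clone 3 (-0.83, adjusted p = 0.0710 by limma), or without any 1 of the control lines. The 122 tested genes within 5 Mb of Srebf2 on chromosome 15 had medians of -0.50, -1.11 and -0.47 in clones 1, 2 and 3 and -0.58 in the double KO, beside -0.35, -1.298, -0.61 and -0.80 for Srebf2. Sqle, elsewhere on the same chromosome, had 32 neighbours with medians of 0.02, -0.05 and 0.02 in the 3 clones, beside -0.02, -0.21 and 0.26 for Sqle.

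**Figure D2:**
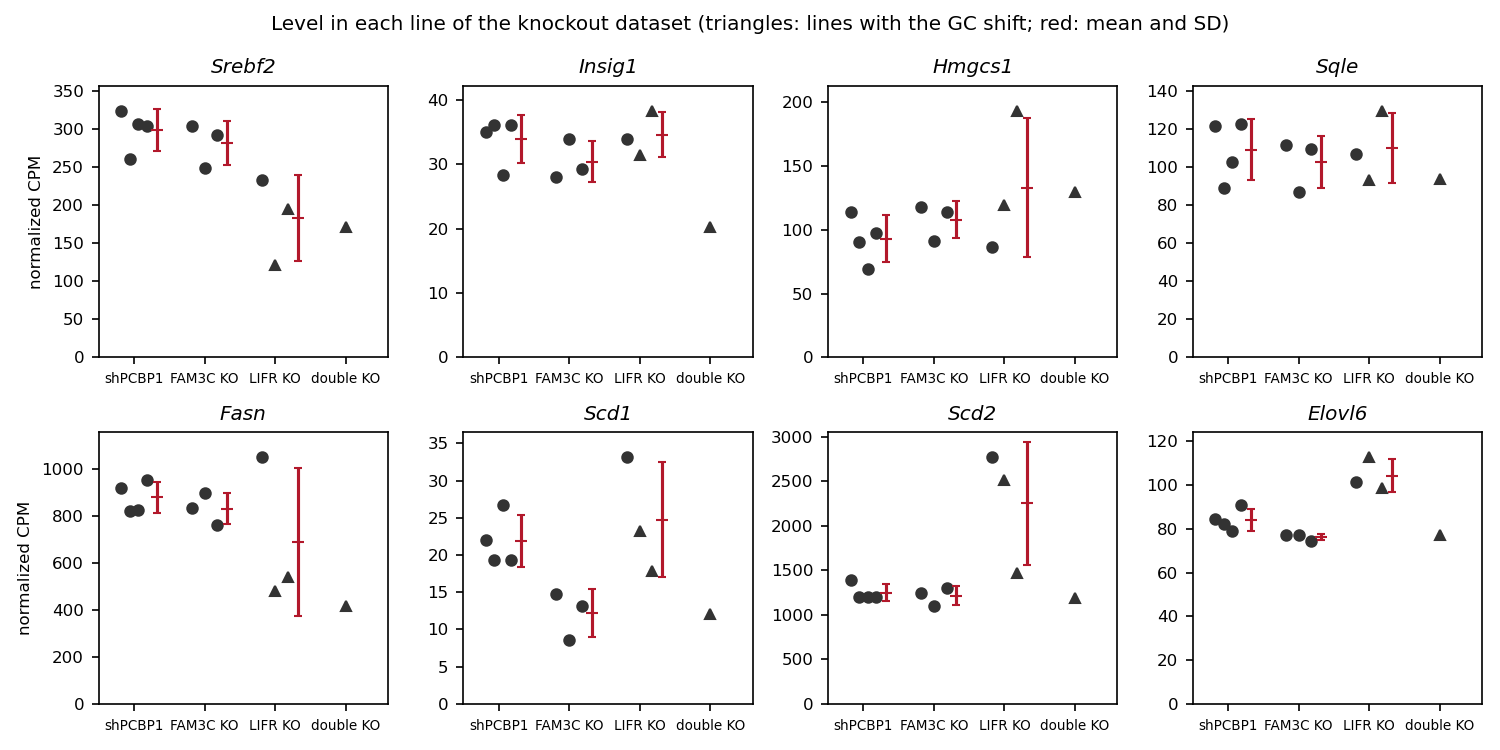
Normalized CPM of 8 members in each line of the knockout dataset, with axes from 0, circles or triangles for single lines (triangles for LIFR KO clones 2 and 3 and the double KO) and red bars for the mean and SD of the groups of 3 or 4. Scd1 is low in the 3 FAM3C KO clones, Scd2 is high in LIFR KO clones 1 and 2, and Srebf2 is below the shPCBP1 lines in every LIFR KO clone.

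The remaining members followed GC content in LIFR KO clones 2 and 3. The rank correlation across the 32 members between the GC content of a gene and its log2 difference from the control mean was -0.89 in clone 2, -0.87 in clone 3 and -0.79 in the double KO, where clone 1 gave 0.22 and the 7 lines of the other groups gave -0.32 to 0.44. It is a description over genes that share a library and its base composition, and over all 12603 genes with a known GC content it was -0.76, -0.74 and -0.70 in the same 3 lines. Members with GC content above 56% were low in both clones. Srebf1 (58.4% GC) was 156.4 CPM in clone 1 and 70.0 and 75.4 CPM in clones 2 and 3, and Scap (59.1% GC) was 63.7, 30.4 and 32.4 CPM. Fasn (57.9% GC) was 1051.8, 479.8 and 540.0 CPM against 823.6 to 954.5 CPM in the shPCBP1 lines. Members below 46% GC tended to be high, such as Idi1 (41.9% GC) at 29.2, 41.5 and 56.7 CPM against 19.9 to 30.0 CPM, and Hmgcs1 (43.1% GC) at 86.5, 119.0 and 193.0 CPM against 69.5 to 113.7 CPM. None of these 5 passed the threshold with all 3 clones. Without clone 1 there were 9 members higher and 11 lower, and 7234 of 12612 genes passed.

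**Figure D3:**
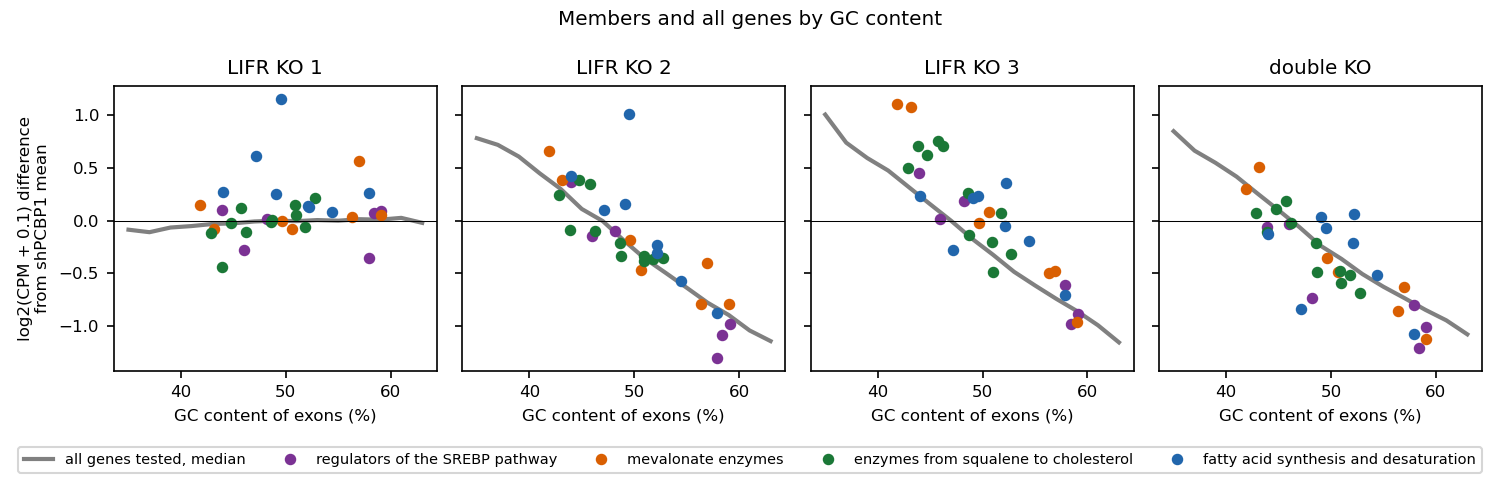
Each panel plots, for 1 line, the log2 difference of each member from the mean of the shPCBP1 lines, coloured by role. The horizontal axis is GC content (%), labelled for exons and taken over the longest transcript. The grey line is the median of all tested genes in bins of GC content. The members lie along the sloping line in LIFR KO clones 2 and 3 and the double KO, where Scd2 in clone 2 stands above it at 1.01, and the line is flat in clone 1.

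After the correction for GC content the LIFR KO clones still differed from one another. The enzymes from squalene to cholesterol had medians of -0.02, -0.25 and 0.24 in clones 1, 2 and 3, and the mevalonate enzymes of 0.02, -0.13 and 0.03. In clone 3 Hmgcs1 stood at 0.57, Idi1 at 0.49, Cyp51 at 0.46 and Nsdhl at 0.46 above the control mean on the corrected log2 scale, while in clone 2 the same genes were at -0.12, 0.07, -0.36 and 0.06. For Insig1 the deposited values were 34.0, 31.5 and 38.3 CPM against 28.4 to 36.2 CPM, and for Sqle 107.0, 93.3 and 129.8 CPM against 89.3 to 122.7 CPM. Neither gene passed the threshold, with adjusted p from limma of 0.862 and 0.965.

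Among the other lipid genes 1 of 55 was higher and 2 were lower in LIFR KO, where 0.911% of all genes were higher and 5.55% lower, so their count is near that of any genes. After correction for GC content 0 were higher and 1 (Lrp1) was lower. Lrp1, an endocytic lipoprotein receptor, was 119.1, 54.2 and 75.1 CPM against 155.8 to 278.1 CPM (log2 difference -1.28, adjusted p = 0.0388 by limma, and -0.90 with 0.0521 after the correction). Cyb5r3, a reductase that feeds electrons to sterol and desaturase enzymes, was 70.7, 45.0 and 75.0 CPM against 101.2 to 119.5 CPM (-0.86, adjusted p = 0.0359 by limma, and -0.59 with 0.0715 after the correction). Me1, the malic enzyme that supplies NADPH for fatty acid synthesis, was 288.1, 367.1 and 218.9 CPM against 174.2 to 201.4 CPM (0.59, adjusted p = 0.0610 by limma, and 0.36 with 0.210 after the correction). Epithelial markers summed to 1212 to 2092 CPM in LIFR KO and 2466 to 3166 CPM in shPCBP1, and the part of this in the members' values was not tested.

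**Figure D4:**
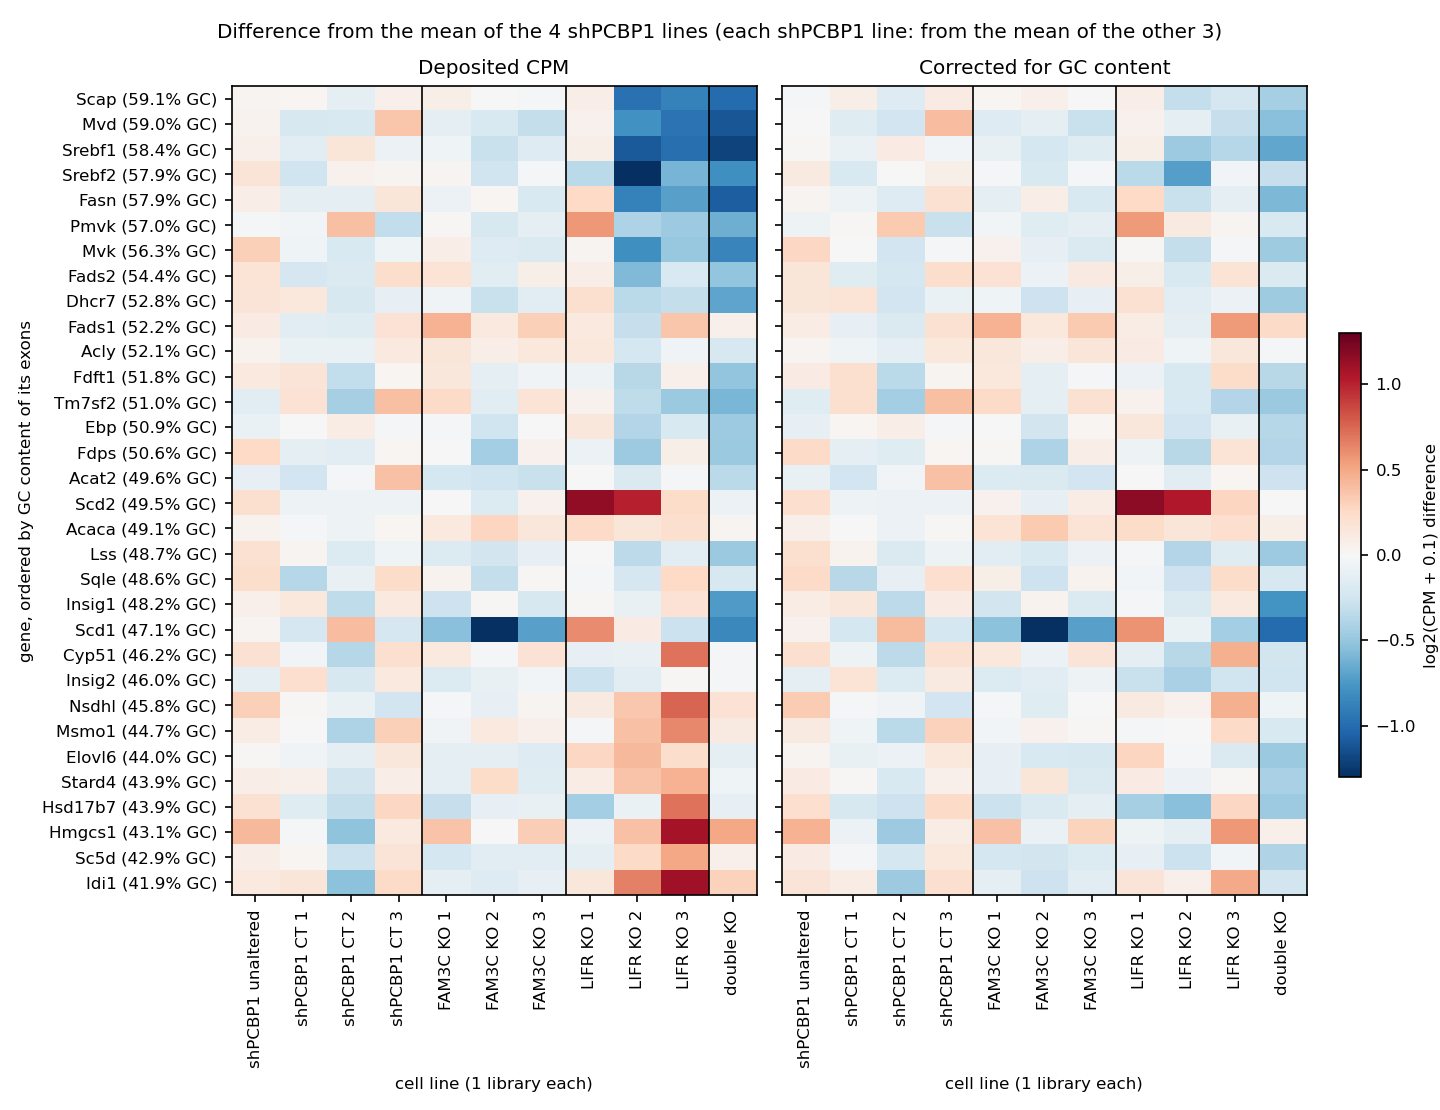
The colour gives the log2 difference of each member (rows, ordered by GC content) in each line (columns) from the mean of the shPCBP1 lines, each shPCBP1 line being set against the other 3, for the deposited values (left) and after correction for GC content (right). The gradient from blue at the top to red at the bottom in LIFR KO clones 2 and 3 fades on the right, while Scd2 stays high in LIFR KO clones 1 and 2 and Scd1 low in the FAM3C KO clones.

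The 2 kinds of knockout were also compared directly, which asks whether loss of FAM3C and loss of LIFR differ in these genes. Scd2, Scd1 and Elovl6 were lower in FAM3C KO than in LIFR KO, and no member was higher, where 1.45% of all genes were lower and 6.83% higher. The log2 differences were -0.84 for Scd2 (SE 0.209, adjusted p = 0.0498 by limma), -1.004 for Scd1 (SE 0.256, adjusted p = 0.0523 by limma) and -0.45 for Elovl6 (SE 0.0939, adjusted p = 0.0387 by limma). Scd1 was 14.8, 8.599 and 13.2 CPM in the FAM3C KO clones and 33.2, 23.3 and 17.8 CPM in the LIFR KO clones, and Elovl6 was 77.0, 77.2 and 74.6 CPM and 101.2, 112.7 and 98.6 CPM. The exact permutation p of each of the 3 was 0.1 (two-sided), the smallest that 3 clones against 3 allow. In the control lines Scd1 was 19.3 to 26.8 CPM, above the FAM3C KO clones and within the range of the LIFR KO clones, and Elovl6 was 79.0 to 90.9 CPM, between the 2 KO groups.

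After correction for GC content Scd2 alone passed (log2 difference -0.81, adjusted p = 0.0589 by limma), with -0.88 for Scd1 (adjusted p = 0.0935 by limma) and -0.19 for Elovl6 (adjusted p = 0.298 by limma). None of the 3 passed when LIFR KO clone 2 or any 1 of the FAM3C KO clones was left out. Without LIFR KO clone 1, 9 members were higher and 8 lower, where 6673 of 12612 genes passed. Without overlap 7 members were lower in FAM3C KO (Acat2, Elovl6, Idi1, Nsdhl, Sc5d, Scd1 and Scd2), where 6.73% of all genes were. In the same way 1 was higher (Srebf2), where 16.1% of all genes were. These separations were counted in the deposited values, which carry the slope with GC content. The log2 differences of Acat2, Idi1, Nsdhl and Sc5d, none of which passed, were -0.19, -0.77, -0.44 and -0.38. After the correction they were -0.17, -0.42, -0.27 and -0.07, and that of Srebf2 went from 0.67 to 0.29. Of the other lipid genes 4 of 55 were higher and 3 lower, where 6.83% of all genes were higher and 1.45% lower, and 2 were higher and 1 lower after correction for GC content. The widest differences as deposited were Lrp1 (1.08), Cyb5r3 (1.00) and Me1 (-0.95 on the log2 scale).

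The double KO was a single library and entered no test. It carried the same slope with GC content as LIFR KO clones 2 and 3, and 7 of 32 members were above the control mean, with a median log2 difference of -0.42 against -0.24 for all genes. After the correction for GC content 4 of 32 were above, and the medians were -0.37 and -0.23. Insig1 was 20.3 CPM, below the 10 other lines (28.0 to 38.3 CPM). Scd1 was 12.1 CPM, within the range of the FAM3C KO clones, and Scd2 was 1186.8 CPM, within that range and below all LIFR KO clones. In the deposited values Hmgcs1 was 129.8 CPM, above all shPCBP1 and FAM3C KO lines, and Fasn was 417.7 CPM, the lowest of the 11 lines. After the correction the log2 difference of Hmgcs1 from the control mean went from 0.51 to 0.07, and that of Fasn from -1.07 to -0.58.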

How the data were processed

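RNA was sequenced from rRNA-depleted directional libraries of NMuMG-derived lines. The authors aligned reads to GRCm38/mm10 (Bowtie2 in Partek Flow) and deposited normalized CPM per gene. Because the deposited CPM values are not whole reads, count models were not used. The study states an approximate sequencing depth per library, but the reads counted per gene cannot be read from these values. The strand setting of the counting was not given in the sources used here. CPM summed to 703925 to 786742 per library over 13893 genes in the knockout dataset and to 411758 to 415645 over 15023 in the knockdown dataset, where 0.0001 stood for 0. Fold changes and group means in one deposited table were not used.

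From these values log2(CPM + 0.1) was tested with limma 3.58.1 (R 4.3.3, trend) after leaving out genes whose mean was under 0.5 CPM, with Benjamini-Hochberg adjustment over all genes and a threshold of 0.07 on the adjusted p. The 3 replicated groups of the knockout dataset were fitted together without the double KO. SD, SE and intervals are between libraries. GC content was that of the longest GENCODE M21 transcript of each gene. For the GC correction a loess curve (span 0.3) on GC content was fitted to each library's deviation from the gene means. The curve was subtracted and the library's mean deviation kept. The fit was run on simulated data with known changes. Of 100 genes changed 2-fold it found 100 in the knockdown comparison and 88 in LIFR KO against shPCBP1. It also called 18 and 21 unchanged genes. The simulated libraries were drawn independently and held no slope with GC content, so this does not cover the shift in LIFR KO clones 2 and 3. Values in every library were given for members past the threshold by at least 1.5-fold and for Srebf1, Srebf2, Insig1, Hmgcs1, Sqle, Fasn, Scd1 and Scd2, and other lipid genes by count and, of the 3 largest changes, those reported here; some items are not reported here. The members and the gene lists were chosen with earlier results of these data known.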

Additional observations from a re-analysis of the deposited data

Results flagged for a closer look

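In the 4 shPCBP1 lines of the knockout dataset a single line lay far from the others for 4 of the 32 members. The measure was the gap to the nearest line over the whole range of log2(CPM + 0.1), set against Dixon's 95% critical value, which chance passes in about 1 of 20 groups. CT clone 2 was the lowest line for Stard4 (0.935), Insig1 (0.862) and Idi1 (0.841). The unaltered line was the highest for Scd2 (0.986), at 1388.3 CPM where the 3 CT clones were 1202.0 to 1204.5 CPM.

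The effects of the 2 kinds of knockout differed for 3 members in the limma test of FAM3C KO against LIFR KO itself. The log2 difference was -1.004 for Scd1, -0.84 for Scd2 and -0.45 for Elovl6. Each FAM3C KO clone lay below each LIFR KO clone for all 3 genes, as for 6.73% of all genes. After correction for GC content Scd2 alone passed (adjusted p = 0.0589 by limma). Scd1 was then at -0.88 and Elovl6 at -0.19 (adjusted p = 0.0935 and 0.298 by limma).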

How the results depend on the processing

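In the knockdown dataset 28 members passed. The count was 17 with a 1.5-fold change also required, and 25 to 29 when 1 library was left out, with 2 instead of 5 members higher without shPCBP1 replicate 2. With no filter on low values Insig2 no longer passed and Srebf1 did (adjusted p = 0.108 and 0.0613 by limma). For FAM3C KO against shPCBP1 the count was 0 in every setting run except the 2 groups fitted alone, where 1 member (Scd1) was lower and 1048 genes passed in place of 39. For LIFR KO against shPCBP1, with 2 members, the count was 0 at an adjusted p under 0.05, 3 with median-ratio rescaling, 1 with the GC correction, 1 when clone 1 stood alone for LIFR KO (a lone library, assumed to vary like the other groups), and 0 with a fit of the 2 groups alone. Leaving out 1 library gave 0 to 20, the highest without LIFR KO clone 1. For FAM3C KO against LIFR KO, with 3 members, the count was 1 with the GC correction and 0 with the 2 groups fitted alone, and leaving out 1 library gave 0 to 17, the highest again without LIFR KO clone 1. Idi1 also passed there with a mean of at least 2 CPM or median-ratio rescaling (adjusted p = 0.0687 and 0.0681 by limma). The cause of these changes was not tested. Over all genes LIFR KO against shPCBP1 gave 816 calls, 488 with median-ratio rescaling, 305 with the GC correction and 7234 without LIFR KO clone 1. No member changed its direction while past the threshold.

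Same-numbered libraries correlated at 0.0512 in the knockdown dataset and at -0.188 to 0.154 in the knockout dataset, so the numbers do not pair them. With the replicate block the count was 0 for LIFR KO against shPCBP1 and 0 for FAM3C KO against LIFR KO, and 0 in both with the block and the GC correction. That fit drops the unaltered line. Without that line and without the block, a setting chosen after seeing the data, the counts were 0 and 1. The deposited CPM do not give the reads counted per gene, so no counting error could be given.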
